A study of Mus musculus with 14 samples.

Results

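Retinal cones are the photoreceptors of daylight and colour vision. They were taken here as the nuclei that the authors labelled Cones in whole-retina single-nucleus RNA sequencing of mice, which gave 3184 of 77676 retinal nuclei and of 109000 nuclei in the series. The study deleted Tgfbr1, a receptor of TGF-beta, from endothelial cells and asked what followed in the retina and its vessels. The control group was 1 library, wild type by its label, and the study describes its controls as normal in phenotype and typically carrying Cdh5CreER with 1 floxed and 1 intact allele of a TGF-beta receptor gene, without giving the genotype of this library. The CKO group was 11 libraries of mice with the genotype Cdh5CreER;Tgfbr1 CKO/-, that is, a floxed and a null allele of Tgfbr1 and a Cre that 4-hydroxytamoxifen switches on under the endothelial promoter of Cdh5. The CKO mice received 4-hydroxytamoxifen from P3 to P5. The study gives the age as P14, whereas the labels speak of young adults. The cones are thus not the cells in which Cre acts, although every cell of the CKO mice carries the null allele, and the number of mice behind a library is not stated.

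A mouse cone detects light with the short-wavelength opsin Opn1sw, the middle-wavelength opsin Opn1mw, or both, and the balance between the opsins varies from the dorsal to the ventral retina. The activated opsin drives the cone transducin Gnat2, which acts on a cone phosphodiesterase that Pde6c and Pde6h build, and the fall in cyclic GMP closes channels made of Cnga3 and Cngb3. Arr3, the cone arrestin, shuts the opsin off, and the thyroid hormone receptor Thrb and the retinoid receptor Rxrg are known regulators of which opsin a cone makes.

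The control library held 11513 nuclei with 30989702 UMIs (unique molecules counted). The CKO libraries held 104 to 18862 nuclei (median 4210) and 90449 to 55803724 UMIs. CKO replicate 4 stood apart, with 104 nuclei, 1 of them a cone, and 0 rods, and it was left out wherever at least 20 cone nuclei were needed. According to the methods, curation by hand took out clusters that held nuclei of CKO replicates 4 and 5, which bears on the cell shares of both libraries. That left 10 CKO libraries with 112 to 805 cones (median 173.5) beside 411 cones of the control. Cone UMIs came to 1085118 in the control and to 433447 to 2277793 in these 10 libraries. The median cone nucleus held 2063 UMIs in the control and 1162.5 to 5389.5 in the CKO libraries, which were lower than the control in some libraries and higher in others. The control and CKO replicates 1 to 3 form batch 1 of the authors, CKO replicates 4 and 5 batch 2, and CKO replicates 6 to 11 batch 3. CKO replicates 8 to 11 were made with the v5 kit and the other libraries with v4PLUS. Xist, the RNA of the inactive X chromosome, stood at 7063 CPM (UMIs of a gene scaled to a common total of UMIs per library and cell type) in control cones, at 7222, 6809 and 5881 in cones of CKO replicates 1, 2 and 7, and at 0 to 62.3 in the other CKO libraries with at least 20 cones, so the sexes were not balanced between the groups. Of the nuclear barcodes, 10 occurred in more than 1 library, 0 of them joined 2 cone nuclei, and 1 cone nucleus shared its barcode with a nucleus of another library. Cone profiles of all 55 pairs of libraries differed by more than counting error, with a chi-square per degree of freedom of 1.38 at the lowest and 8.57 at the median.

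The label went with the cone markers. This is a description and not a test, since the study named the clusters of these nuclei by established retinal markers. UMIs of at least 2 of the 5 markers Arr3, Opn1sw, Opn1mw, Gnat2 and Pde6h were in 96.7% of cone nuclei and in 2.54% of all other nuclei. Arr3 gave a UMI in 96.2% of cones (median depth 2169.5 UMIs) and in 0.163% of rods (median depth 1064). Opn1mw gave one in 74.8% of cones and 0.115% of rods, and Opn1sw in 58.7% and 0.273%. The transducin Gnat2 was seen in 63.1% of cones and 0.154% of rods, and the phosphodiesterase subunit Pde6h in 53.7% and 0.427%. Cell types other than rods held more of these UMIs than rods did. Arr3 was in 4.09% to 15.2% of their nuclei, highest in horizontal cells, whose median depth was 8629 UMIs. Rod RNA was found in cones and in every other type: Nrl, the factor that sets the rod fate, gave a UMI in 24.7% of cones and in 13.7% to 33.8% of nuclei of the other types apart from rods (median 22.3%), against 45.2% of rods. The 10 rod markers, all detected and led by the rod arrestin Sag, summed to 10199 CPM in control cones and to 6981 to 10608 CPM (median 9061) in CKO cones, beside 21318 CPM in control rods. In CPM, Nrl stood at 199 in cones, 66.2 to 186 in the other types and 476 in rods. How much of the rod RNA in cones was free RNA was not tested, and no expression in cones is read from it.

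No difference in the number of cones passed a test between CKO libraries and the control, within the wide limits that 1 control library sets. Cones made up 3.57% of control nuclei (95% Clopper-Pearson interval 3.24% to 3.93%, counting error only) and 0.962% to 4.95% of CKO nuclei (median 3.86%). The control lay inside the CKO range, with 8 of 11 CKO libraries above it. The mean difference of 0.171 percentage points gave p = 0.667 in a two-sided exact permutation test (n = 1 and 11), in which 0.0833 is the smallest p possible. That mean includes CKO replicate 4, with its 1 cone; without this library, a choice made after seeing the data, it was 0.449 points (p = 0.545, exact permutation, n = 1 and 10), and 0.421 without CKO replicates 4 and 5 (p = 0.6, exact permutation). With nuclei counted by UMIs of at least 2 of the 5 markers in place of the label, the difference was 1.03 points, with 10 of 11 CKO libraries above the control (p = 0.333, exact permutation), and 1.65 points without CKO replicate 4 (10 of 10 above, p = 0.182, exact permutation). That count held 3078 labelled cones and 1890 nuclei of other types. It is thus not a count of cones alone, and the part of cone RNA in other types was not tested. For each 100 rods there were 6.21 cones in the control and 5.48 to 11.3 in the CKO libraries (median 7.62), with 8 of 10 libraries above the control and p = 0.455 (exact permutation, smallest possible 0.0909). The mean difference was 1.61 over all 10 libraries and 2.80 among the 6 of the control's kit, all above the control (p = 0.286, exact permutation). Within batch 1 the cone share of the CKO libraries was 3.85%, 3.88% and 4.56%, all above the control (p = 0.5, exact permutation). The same libraries held 7.56, 7.67 and 8.96 cones for each 100 rods, all above the control, with p = 0.25, the smallest that 1 against 3 allows (exact permutation). With rods left out of the denominator the sign of the difference in cone share turned, to -0.606 points (p = 0.667, exact permutation), but without CKO replicate 4 it was 0.0768 points (p = 1, exact permutation). The 4 whole-cone quantities tested this way had Benjamini-Hochberg (BH) adjusted p of 0.889, 0.889, 0.889 and 1.

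The balance of the opsins varied among libraries by more than it differed between groups. Opn1sw gave 29.6% of opsin UMIs in control cones (interval 27.9% to 31.4%), from 804 Opn1sw and 1910 Opn1mw UMIs. That interval takes UMIs as independent, although UMIs of the same nucleus are not, so it understates the error. In CKO cones the Opn1sw share ran from 25.5% to 38.3% (median 31.5%), lowest in replicate 7 and highest in replicate 9. Of the 10 CKO libraries, 7 were above the control, and the difference of 1.86 points gave p = 0.545 (exact permutation). The batch 1 CKO libraries had shares of 31.1%, 32.8% and 35.8%, each above the control (p = 0.5, exact permutation). Nuclei with UMIs of both opsins, after each nucleus was thinned to 1000 UMIs, made up 24.0% of control cones (interval 19.7% to 28.7%) and 15.5% to 30.1% of CKO cones (median 23.4%). Here 5 of 10 CKO libraries lay above the control, with p = 1 (exact permutation), and the batch 1 libraries stood at 20.5%, 22.3% and 30.1%. These shares depend on depth, since without thinning the control stood at 38.7%. For the background of such shares, Opn1sw gave a UMI in 2.93% to 12.6% of nuclei of types other than cones and rods, and Opn1mw in 2.78% to 13.7%.

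Single cone nuclei ranged from pure Opn1mw to pure Opn1sw. Of the 2841 nuclei with at least 2 opsin UMIs, 1354 (47.7%) had an Opn1mw share of at least 0.8 and are called M-opsin nuclei, 636 (22.4%) had a share of at most 0.2 and are called S-opsin nuclei, and 851 (30.0%) lay between. Opn1sw was at 0 UMIs in 1079 of these nuclei and Opn1mw in 559. M-opsin nuclei made up 50.3% in the control and 36.3% to 55.7% in CKO libraries (median 48.6%). S-opsin nuclei made up 18.1% in the control and 17.6% to 28.0% in CKO libraries (median 21.7%). The control lay inside the CKO range for both classes. Just inside and just outside the S-opsin limit, 72 nuclei had shares from 0.1 to 0.2 and 79 from 0.2 to 0.3; at the M-opsin limit, 188 had shares from 0.8 to 0.9 and 165 from 0.7 to 0.8. The nuclei thus gathered at the ends, with a broad group between them; a nucleus with few opsin UMIs can take few values of the share, the ends among them.

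**Figure D1:**
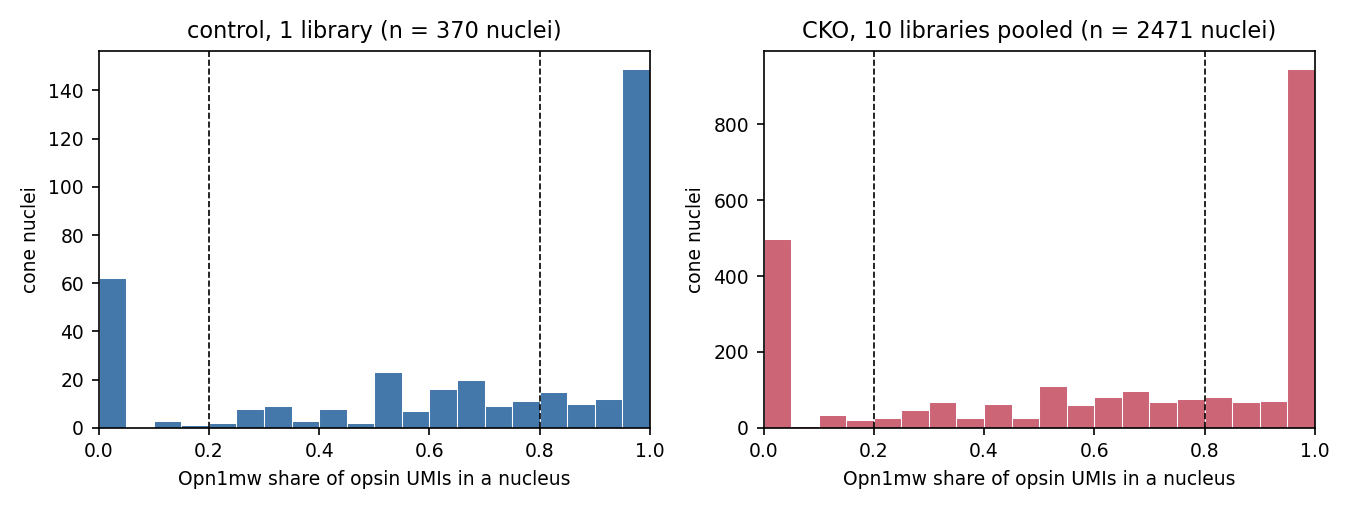
Number of cone nuclei (vertical axis) by the Opn1mw share of their opsin UMIs (horizontal axis) in the control and in the 10 CKO libraries, for nuclei with at least 2 opsin UMIs. Dashed lines mark shares of 0.2 and 0.8; in both panels most nuclei lie at the ends, with 186 M-opsin and 67 S-opsin nuclei in the control.

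M-opsin and S-opsin nuclei differed in many genes beyond the opsins, which were left out of the test because they define the classes. The question was what else separates cones of the opposite opsins. UMIs were summed for each class in each of 11 libraries, with 46 to 350 M-opsin and 23 to 178 S-opsin nuclei in a CKO library, and the classes were compared within libraries with edgeR. Of 5564 genes tested, 468 (8.41%) were called at a BH adjusted p under 0.05, 261 (4.69%) higher in M-opsin and 207 (3.72%) higher in S-opsin nuclei. Of the genes higher in M-opsin nuclei, 107 were higher in every library and 17 had no overlap between the classes; of those higher in S-opsin nuclei, 45 and 7. DESeq2 called 302 of the same 5564 genes. Without the pairing by library, edgeR called 138 of 3722 genes tested, so the pairing and the set of genes changed together. Median depth was 2167 UMIs in M-opsin and 2215 in S-opsin nuclei of the control, and it differed between the classes in some CKO libraries, with 5302 and 3361 UMIs in CKO replicate 10, 4695 and 3571.5 in replicate 11, and 1794 and 2379 in replicate 2. The 10 rod markers were higher in S-opsin nuclei in 10 of 11 libraries, with a median of 10133 CPM (6764 to 13599) against 8146 (6937 to 9785), all 10 markers detected and Sag the most abundant; their part in the result was not tested.

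Among the genes higher in M-opsin nuclei, the smallest p belonged to Cdh12. This gene, a cadherin that joins cells, stood at 450.4 to 936 CPM (median 541) in M-opsin and 9.62 to 133 (median 24.0) in S-opsin nuclei. The classes did not overlap, and the log2 difference was 4.23 (SE 0.15, adjusted p = 6.01e-40, 11 of 11 libraries). Rgs7, which speeds the shut-off of G proteins, was at 545 to 1080 CPM (median 805) in M-opsin and 84.3 to 269.5 (median 206) in S-opsin nuclei, a log2 difference of 2.08 (SE 0.09, adjusted p = 8.06e-35). Smug1, a DNA repair enzyme that removes uracil, had medians of 551 and 112 CPM (log2 difference 2.40, SE 0.11). The long non-coding RNA Gm44532 had medians of 395.5 and 96.8 CPM (log2 difference 2.01). Susd4, a complement regulator, had medians of 504 and 179.7 CPM (log2 difference 1.67). All of these were higher in M-opsin nuclei in 11 of 11 libraries, without overlap. Dst, a linker of the cytoskeleton (372 and 155 CPM), and the non-coding RNA C230014O12Rik (245 and 62.6 CPM) had log2 differences of 1.37 and 1.83. Tenm4, a teneurin of synaptic adhesion, had medians of 156 and 32.7 CPM, and Dlgap2, a scaffold of synapses, 152 and 23.9 CPM, with log2 differences of 2.32 and 2.45. The zinc finger gene Tshz2 had medians of 859 and 525 CPM (log2 difference 0.90). Apart from Tenm4 and Tshz2, none of these 10 genes overlapped between the classes.

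Among the genes higher in S-opsin nuclei, Nrxn3 had the smallest p. Nrxn3, a neurexin of the presynaptic membrane, stood at 4206 to 8794 CPM (median 5722) in S-opsin and 327 to 1114 (median 774) in M-opsin nuclei. There was no overlap, and the log2 difference of M-opsin minus S-opsin was -3.16 (SE 0.08, adjusted p = 4.06e-52, lower in M-opsin nuclei of 11 of 11 libraries). Ccdc136, a coiled-coil gene, was at 978 to 2028 CPM (median 1742) in S-opsin and 154 to 474 (median 313.5) in M-opsin nuclei, a log2 difference of -2.51 (SE 0.07, adjusted p = 5.35e-48). Ccdc136 lies 7812 bases from Opn1sw, on the other strand (GRCm39, chr6:29396279-29427023, plus, and chr6:29376670-29388467, minus), and the 2 genes do not overlap. Ralyl, an RNA-binding protein, had S-opsin and M-opsin medians of 512 and 141 CPM, and Cacna1h, a T-type calcium channel, 137 and 24.6 CPM, with log2 differences of -2.23 and -2.63. Poteg was at medians of 125 and 3.63 CPM (log2 difference -4.80), the kinase gene Mast4 at 125 and 9.81 CPM (-3.52), and Galnt17, of the family that starts O-linked glycans, at 104 and 12.5 CPM (-2.92). All of these were higher in S-opsin nuclei of every library, except Mast4, which had 0 UMIs in both classes of 1 library and was higher in the other 10. The phosphodiesterase gene Pde3a (351 and 132 CPM, log2 difference -1.44) and Wdr95 (220.5 and 82.1 CPM, -1.42) were higher in S-opsin nuclei of 10 of 11 libraries, and Eya1, a transcriptional coactivator, (150.1 and 48.7 CPM, -1.98) in 9 of 11.

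**Figure D2:**
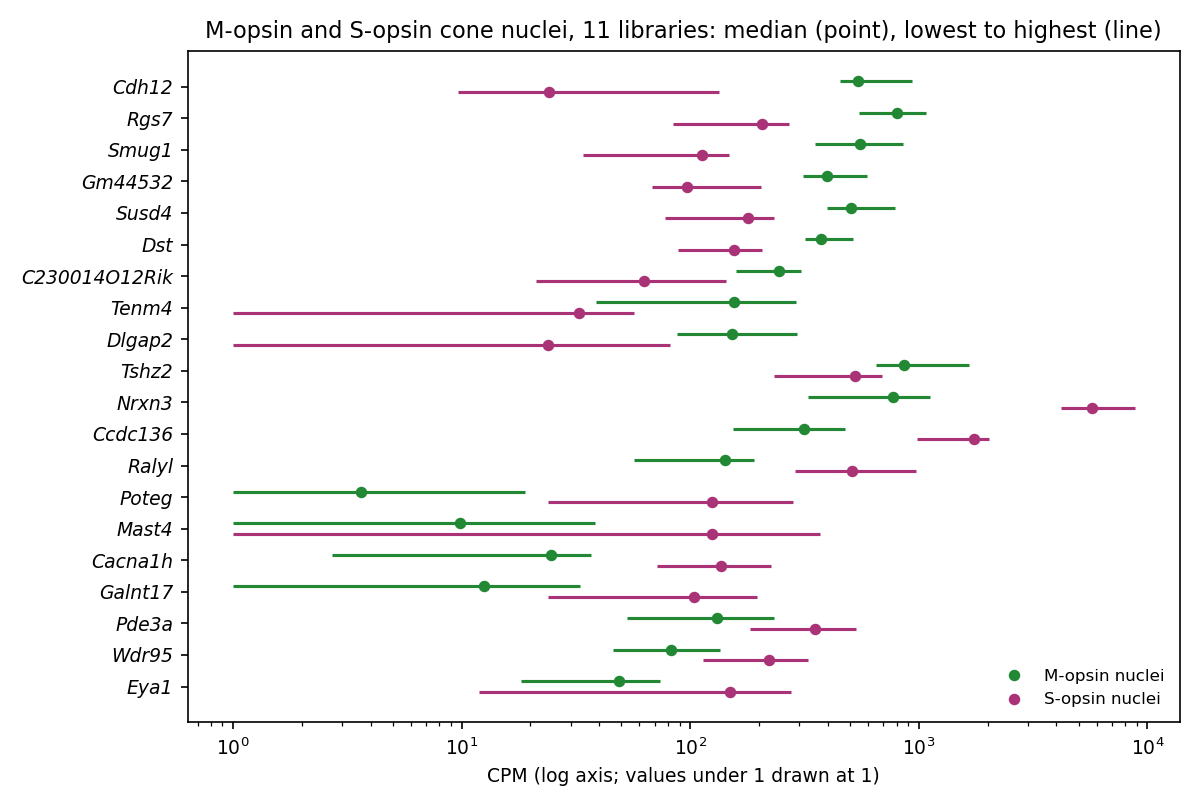
CPM (horizontal axis, log scale) in M-opsin and S-opsin cone nuclei for the 10 genes with the smallest p in each direction, with points at the median of 11 libraries and lines from the lowest to the highest library. Cdh12 lies to the right in M-opsin nuclei (median 541 CPM) and Nrxn3 in S-opsin nuclei (median 5722 CPM).

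Among known regulators of cones, Thrb stood at 1858 to 2923 CPM (median 2395) in M-opsin and 1205 to 1830 (median 1460) in S-opsin nuclei. The classes did not overlap for this thyroid hormone receptor, and the log2 difference was 0.63 (SE 0.05, adjusted p = 1.49e-17). Its partner Rxrg had medians of 64.8 and 77.2 CPM and was not called (log2 difference -0.34, adjusted p = 0.275). Of the 8 genes of the thyroid hormone pathway tested, Thrb alone was called. Of 20 photoreceptor transcription factors, 6 were called, beside 8.41% of all genes tested: Thrb and Samd7, a Polycomb partner that restrains genes in photoreceptors (log2 difference 0.42), were higher in M-opsin nuclei, and Otx2 (-0.34), Nr2e3 (-0.33), Samd11 (-0.21) and Meis2 (-0.31) were higher in S-opsin nuclei. The calls of Otx2, Nr2e3 and Samd11 were lost without the library block, those of Nr2e3 and Samd11 also with the classes split at a share of 0.5, and that of Samd11 also with DESeq2. The calls of Otx2 and Samd11 were lost without CKO replicate 5, and that of Samd11 also without replicate 2 or 3. The rod factor Nr2e3 stood at 832 CPM in control rods and is itself 1 of the 10 rod markers above. Vax2, a homeobox factor of the ventral retina, had S-opsin and M-opsin medians of 28.9 and 12.2 CPM, higher in S-opsin nuclei of 10 of 11 libraries (log2 difference -1.34, SE 0.33, adjusted p = 0.00235), and was called beside 1 uncalled gene of its list of dorsoventral factors.

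Of 22 cone phototransduction genes tested, 4 were called, beside 8.41% of all genes tested, with a median log2 difference of -0.14 against -0.00 for all genes tested. Arr3 was at 1787 to 4969 CPM (median 3505) in M-opsin and 1256 to 2671 (median 2039) in S-opsin nuclei, higher in M-opsin nuclei of 11 of 11 libraries (log2 difference 0.64, SE 0.05, adjusted p = 1.17e-16). The transducin subunit Gnb3 (-0.22), the channel subunit Cngb3 (-0.19) and the retinoid transporter Abca4 (-0.19) were higher in S-opsin nuclei by small amounts, and each of these 3 lost its call in some of the alternatives. Without CKO replicate 5 none of the 3 was called, and Cngb3 also lost its call without the control or CKO replicate 1 or 9, and Abca4 without CKO replicate 10. Gnat2 (adjusted p = 0.148), Pde6h (0.359) and Pde6c (0.856) were not called, although Gnat2 was called (adjusted p = 0.00471) when the classes were split at a share of 0.5. At the synapse, 4 of 18 ribbon synapse genes were called, beside the same 8.41% of all genes: Lrit3, a synaptic adhesion protein, was higher in M-opsin nuclei (0.46), and the release factors Unc13b (-0.24) and Rims2 (-0.21) and the protocadherin Pcdh15 (-0.40) were higher in S-opsin nuclei. Of 16 outer segment and cilium genes, 3 were called (8.41% of all genes): Rp1l1 was higher in M-opsin nuclei (0.24) and Rp1 (-0.25) and Rpgr (-0.31) in S-opsin nuclei. Rpgr lost its call without CKO replicate 5 or 9, and Rp1l1, at an adjusted p of 0.0431, lost it without the control or CKO replicate 3, 5, 6, 7, 9 or 11. Per3, a clock gene, was called among 9 clock genes (0.50, higher in M-opsin nuclei of 11 of 11 libraries), and Btg2 among 2 immediate early genes (0.35), a call lost without CKO replicate 5. Of 19 hypoxia and glycolysis genes, Ndrg1 was called (-0.39), also lost without CKO replicate 2 or 5. Among 14 rod phototransduction genes, Sag (-0.30) and Gngt1 (-0.26) were higher in S-opsin nuclei, the call of Gngt1 being lost without the control or CKO replicate 1, 2, 3 or 7. Of 10 rod markers, 3 were called, against 8.41% of all genes, and 0 had a positive log2 difference. Genes of other marker lists moved the same way: Hbb-bs (-1.84) and Hba-a2 (-2.09), the 2 red blood cell markers tested, were higher in S-opsin nuclei. So were Cabp5 (-0.98), Prkca (-0.25) and Ndrg1, each the only gene tested of the cone bipolar, rod bipolar and horizontal cell lists. Prkca and Ndrg1 stood higher in control rods (1134 and 539 CPM) than in control cones (421 and 179 CPM). The part of rods or of those other neurons in their shift was not tested. Prkca lost its call without the control or CKO replicate 1, 2, 5, 6 or 8. With DESeq2 the calls of Hbb-bs, Hba-a2, Prkca, Ndrg1, Btg2, Gngt1, Rpgr, Rp1l1 and Cngb3 were lost, and with the classes split at a share of 0.5 those of Prkca, Btg2, Gngt1 and Rp1l1. Abca4 and Rp1l1 lost theirs with at least 4 opsin UMIs, and Rp1l1 also with a filter of at least 100 UMIs. Without the library block Arr3 alone kept its call among the genes of this paragraph that could be tested. The 6 red blood cell markers summed to 0 to 97.0 CPM (median 27.2) in M-opsin and 5.69 to 948 CPM (median 24.2) in S-opsin nuclei, higher in M-opsin nuclei of 4 of 11 libraries, so the called difference rests on high values in some S-opsin classes. In the lists of photoreceptor stress (4 tested, 0 at an unadjusted p under 0.05, against 17.3% of all genes), mitochondrial electron transport (16 and 0), TGF-beta pathway (5 and 2) and interferon (2 and 1), edgeR called 0 genes.

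Against rods, the photoreceptors that share most of their machinery, cones had much higher levels of Cdh18, Arr3, Opn1mw and Pde6c. Because the labels come from clustering these same nuclei, the ratios are a description without a test. Among 3578 genes with at least 500 UMIs in cones, 723 had a cone to rod ratio of CPM above 1 in all 11 libraries and 643 had one below 1 in all. With TMM scaling, which divides the ratios by a median factor of 1.14, the counts were 471 and 1217. Rod UMIs under 3 in a library were set to 3, so such ratios are lower bounds and their order is an order of bounds; that floor was chosen after the ratios were seen. Acbd6, for example, had 5290 UMIs in cones and 4 in rods, under the floor in 11 of 11 libraries, against 38521 and 142 for Cdh18. Cdh18, a cadherin, had the highest median bound, at least 4126 (216 to 9218 across libraries, with rods under the floor in 4 of 11). In the control it stood at 4500 CPM in cones and 2.21 in rods, a ratio of 2038. Arr3 followed with a median of at least 2554 and Opn1mw with at least 2118. Pde6c, the catalytic subunit of the cone phosphodiesterase, had a median of at least 1812. In the control it stood at 1647 CPM in cones and 0.581 in rods, a ratio of 2834. Slc24a2, the exchanger that removes calcium from cone outer segments, had a median of at least 1085, and Sphkap, an anchor of protein kinase A, at least 1093. Opn1sw had at least 554, and Gnat2 and Pde6h had at least 424 and 238.

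The other genes among the 20 highest bounds were as follows. Ccdc136 had a median ratio of at least 1036, Acbd6, which binds acyl-CoA, at least 762, and the kinase gene Mapk4 at least 751. The adhesion gene Nrcam had at least 734 and Jam3, also of adhesion, at least 458. Rgs7, also higher in M-opsin nuclei, had at least 747. Kcnab1, a potassium channel subunit, had at least 665, Kcnma1, the BK potassium channel, at least 519, Slc4a10, which carries bicarbonate, at least 497, and Slc24a4, a further calcium exchanger, at least 457. Tafa3, a secreted protein, had at least 665, the zinc finger gene Zfp608 at least 630 and the R-spondin receptor Lgr5 at least 484. The lowest medians belonged to St6galnac5 (0.316) and Galnt10 (0.321), which act on glycans, Gldc, of glycine breakdown (0.335), the rod nuclear receptor Esrrb (0.336) and Ebpl (0.339). Each of these 5 was below 1 in all 11 libraries. Genes with few UMIs in cones did not enter, so the ratios below 1 do not hold the genes lowest in cones.

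Within the lists, the median cone to rod ratio was 4.64 for 23 cone phototransduction genes, of which 10 were above 1 and 9 below 1 in all 11 libraries, 0.494 for 14 rod phototransduction genes and 1.02 for all 3578 genes. Cngb3, the modulating subunit of the cone channel, had a median ratio of 24.2 (21.0 to 70.2). In the control it stood at 2660 CPM in cones and 121 in rods, a ratio of 21.9. Gnb3 had a ratio of 4.64 (3.47 to 15.7), highest in the control. The guanylate cyclase activator Guca1a had 5.47 and was above 1 in 9 of 11 libraries, and the transducin gamma subunit Gngt2 had at least 156, with 0 UMIs in cones of CKO replicate 7. Of 20 transcription factors, Sall3 (at least 76.7), Lhx4 (at least 62.3) and Rxrg (at least 58.3), which act in cone development, had the highest ratios. Thrb had 1.46 (1.17 to 1.63), above 1 in all 11 libraries, and Crx, the master regulator of both photoreceptors, 0.982 (0.853 to 1.14). Vegfa, the growth factor of blood vessels, stood at 63.6 CPM in control cones and 0.116 in control rods, with a median ratio of at least 13.3 (1.46 to 233 across libraries). The thyroid hormone corepressor Hr had 4.83, the clock gene Per3 4.02 and the immediate early gene Nr4a1 2.38. The median ratio was 0.914 for 16 ribbon synapse genes, 0.730 for 15 outer segment and cilium genes, 0.806 for 15 hypoxia and glycolysis genes, 1.20 for 10 mitochondrial genes and 1.01 for 4 TGF-beta pathway genes. Tgfbr1 itself had 0.722 (0.597 to 1.07).

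The promoters of the cone markers were read to see what sequence they share. All 5 matched the RefSeq promoter table (GRCm38.p6, 250 bases before to 50 after the start), which is older than the build of the gene positions above. The letters TAATCC, on either strand, as in the site of the photoreceptor factor Crx, were searched first and found in 1 of 5 markers, Gnat2, against 7.16% of 27025 promoters. The shorter TAATC, which contains no other motif searched but lies within TAATCC, was tried after that result and found in 3 of 5, against 22.3% of all promoters. Among the 20 genes of the highest cone to rod ratios, 15 matched, with TAATCC in 1 (6.67%) and TAATC in 3 (20.0%); the 2865 matched genes of the cone to rod comparison had shares of 6.35% and 15.6%. For genes higher in M-opsin nuclei the shares were 6.47% and 16.4% of 201 matched, and for those higher in S-opsin nuclei 8.78% and 18.9% of 148. Arr3 held TAATC 3 times, and 3 or more copies were in 0.688% of all promoters. The promoters of Arr3 (chrX:100605247-100605546, plus strand) and of Gnat2 (chr3:108092816-108093115, plus strand), the markers with the most copies and with the longer motif, are shown 5′ to 3′ with TAATC or its reverse complement GATTA in capitals; a match is a description of letters, not of binding.
Arr3: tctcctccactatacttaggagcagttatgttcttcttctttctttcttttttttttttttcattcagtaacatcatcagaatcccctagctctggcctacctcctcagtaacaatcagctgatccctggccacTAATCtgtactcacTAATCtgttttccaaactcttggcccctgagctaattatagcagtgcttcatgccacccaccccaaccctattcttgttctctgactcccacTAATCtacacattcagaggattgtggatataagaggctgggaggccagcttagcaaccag
Gnat2: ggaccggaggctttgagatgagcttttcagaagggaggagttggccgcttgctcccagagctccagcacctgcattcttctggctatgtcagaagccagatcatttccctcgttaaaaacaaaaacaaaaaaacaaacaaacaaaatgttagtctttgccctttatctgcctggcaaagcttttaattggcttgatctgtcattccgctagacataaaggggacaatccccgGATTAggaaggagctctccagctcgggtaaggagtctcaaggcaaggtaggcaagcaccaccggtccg

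Between CKO and control cones few genes were called, in a fit that rests on 1 control library. The question was what the loss of Tgfbr1 from vessels was followed by in cones. Of 9250 genes tested with edgeR over 1 control and 10 CKO libraries, with batch and kit as covariates, 6 (0.0649%) were called at a BH adjusted p under 0.05, 4 (0.0432%) higher and 2 (0.0216%) lower in CKO cones; 443 (4.79%) had an unadjusted p under 0.05. CKO replicates 1 to 3 are the only CKO libraries in the batch of the control. With batch as a covariate, the log2 changes given here, for rods and for the difference between cones and rods are therefore set by these 3 libraries against the control. CKO replicates 6 to 11 add to the estimate of spread. CKO replicate 5 is the only library of its batch in these fits, so the batch term takes it up and it adds to neither. DESeq2 called 5, all among the 6. With kit alone or no covariate, the 2 lower genes alone were called. Among the libraries with Xist above 1000 CPM, 14 genes were called, the 6 among them. Within batch 1 alone 6 were called, 5 of them the same. Without CKO replicate 1 the count was 15, the 6 among them. In cone nuclei without any UMI of the rod genes Nrl, Nr2e3 or Gnat1, an alternative chosen after seeing the data, 1 gene was called, Gm17167.

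Both genes that fell in CKO cones are non-coding or unannotated. Gm17167, a long non-coding RNA, stood at 204 CPM in control cones (221 UMIs) and at 9.24 to 31.7 CPM (median 14.5) in CKO cones. All 10 CKO libraries lay far below the control, with a log2 change of -3.59 (SE 0.41, adjusted p = 0.000927). Gm12394 stood at 128 CPM in the control (139 UMIs) and 9.24 to 32.0 CPM (median 17.5) in CKO cones, again lower in 10 of 10 (log2 change -2.58, SE 0.33, adjusted p = 0.00177). Gm17167 lies at chr4:42206998-42235313 (GRCm39), 5.12 Mb from Tgfbr1, the gene whose alleles set the groups apart, and what that linkage adds to the result cannot be told apart from the genotype. Gm12394 is not named in the annotation at hand. Looked at after these genes were seen, 10 of 79 genes tested within 10 Mb of Tgfbr1 had an unadjusted p under 0.05 in cones (12.7%, against 4.79% of all genes), and 1 was called. In rods 3 of 119 such genes had one (2.52%, against 3.78%).

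The genes that rose in CKO cones include a growth factor. Fgf2, a fibroblast growth factor that protects photoreceptors, stood at 4.61 CPM in control cones (5 UMIs) and 25 to 77.1 CPM (median 40.7) in CKO cones. Each of the 10 CKO libraries was above the control (log2 change 3.36, SE 0.58, adjusted p = 0.0316). The call was lost within batch 1 alone and without CKO replicate 2, 8, 9, 10 or 11. Fgf2 could not be tested in cone nuclei without UMIs of Nrl, Nr2e3 or Gnat1. Its level was higher in rods in both groups, as given below, and the part of rod RNA in the rise was not tested. Fgf2 overlaps Fgf2os by 1417 bases and Nudt6 by 5711 bases, both on the other strand, and reads of these genes cannot be told apart where strand is unknown. Antxr2, an anthrax toxin receptor that binds extracellular matrix, was at 46.1 CPM in the control and 77.3 to 180 CPM (median 137) in CKO cones, 10 of 10 above the control (log2 change 1.67, SE 0.28, adjusted p = 0.0316). It lost its call without CKO replicate 2, 3, 9 or 10.

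Arid5b, a chromatin regulator, and Cdh20, a cadherin, were uneven among CKO libraries. Arid5b stood at 5.53 CPM in control cones (6 UMIs) and 4.54 to 145 CPM (median 74.3) in CKO cones, above the control in 8 of 10 (log2 change 3.46, SE 0.51, adjusted p = 0.00941). The pair at the control level was CKO replicates 6 and 7, at 4.54 and 4.62 CPM. Cdh20 had 0 UMIs in control cones, which allows up to 2.76 CPM, and 4.62 to 70.7 CPM (median 45.7) in CKO cones, at least 16.5-fold higher at the median (adjusted p = 0.00957, 10 of 10 above the control). DESeq2 did not call Cdh20. CKO replicates 6 and 7 were again the lowest, at 11.4 and 4.62 CPM. They are the libraries of batch 3 made with the v4PLUS kit, and other genes were low in cones of both: the glycolytic enzyme Pgk1 stood at 4.54 and 9.24 CPM in replicates 6 and 7 (30.4 in the control), and the respiratory chain gene Cox6c at 4.54 and 1.54 CPM (99.5 in the control).

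**Figure D3:**
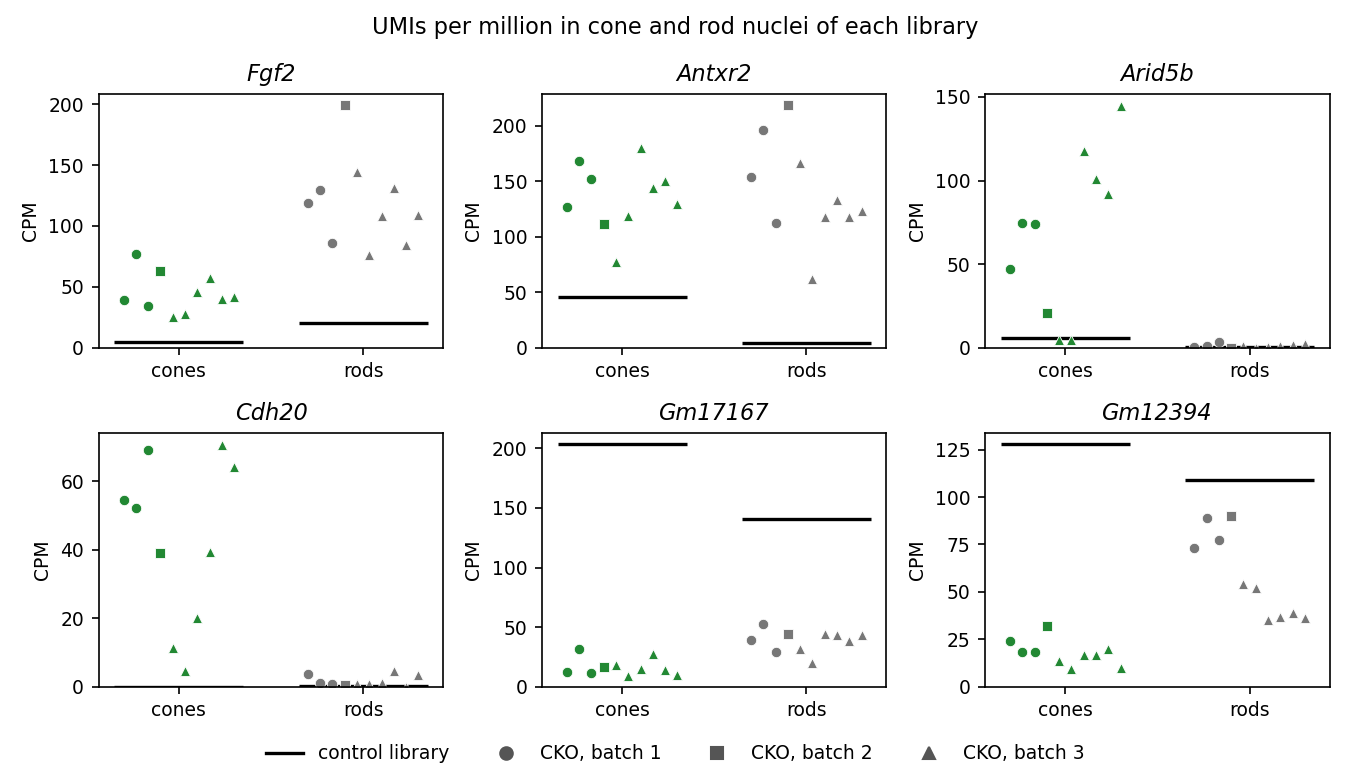
CPM (vertical axis) of the 6 genes called in cones, in cone and rod nuclei of each library, with the control as a line and each CKO library as a point shaped by batch. Gm17167 is at 204 CPM in control cones and at most 31.7 CPM in CKO cones, and Arid5b and Cdh20 are near 0 in rods.

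In rods, 10 of 13366 genes (0.0748%) were called, 8 (0.0599%) higher and 2 (0.015%) lower in CKO libraries. The 6 red blood cell markers, all detected and led by Hbb-bs in cones, summed to 7.55 CPM in control rods and 65.3 to 457 CPM (median 163) in CKO rods; of 5 tested in rods 0 were called and 4 had an unadjusted p under 0.05 (3.78% of all genes), and their part in the result was not tested. Of the 6 genes called in cones, 3 were among them. Antxr2 rose in rods from 4.18 CPM to 61.6 to 218 CPM (median 128; log2 change 5.19, adjusted p = 0.0146). Fgf2 went from 20.3 CPM to 76.4 to 199 CPM (median 114; log2 change 2.45, adjusted p = 0.0443). Gm17167 was at 141 CPM in control rods and 20.1 to 52.9 CPM (median 41.3) in CKO rods (log2 change -1.81, adjusted p = 0.0434). Cone and rod libraries come from the same tissue and share their control, so these values stand side by side and not as a repeat. Arid5b and Cdh20 were scarce in rods, each with 1 UMI in the control and at most 3.48 and 4.70 CPM in CKO rods. With kit alone as covariate, chosen after seeing the data, 2 genes were called in rods, and within batch 1 alone 1; Antxr2 kept its call in both, and Fgf2 and Gm17167 lost theirs in both.

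The CKO effect itself differed between cones and rods in 8 of 14081 genes (0.0568%), all 8 (0.0568%) with the lower effect in cones, by an interaction test in edgeR with the library as block. In the control, each of the 8 had a higher level in cones than in rods. DESeq2 called 6 genes, all among the 8. Antxr2 was at 46.1 CPM in control cones and 4.18 in control rods, and CKO medians were 137 and 128 CPM, so cones and rods came to lie close (difference of log2 effects -3.51, SE 0.49, adjusted p = 0.000124). Gnb3, the cone transducin beta subunit, had 973 CPM in control cones and 62.2 in control rods, with CKO medians of 1040 and 190 CPM (difference -1.51, SE 0.29, adjusted p = 0.0186), a call that was lost in 3 of 4 alternatives (kit alone, DESeq2 and rods thinned). Its level was above the control in 10 of 10 CKO rod libraries and in 6 of 10 of cones. The non-coding RNAs F630040K05Rik (difference -2.03), Gm9869 (-2.50) and Gm15983 (-1.86) had the same form, with 161, 90.3 and 60.8 CPM in control cones, 19.1, 9.30 and 17.9 in control rods, and all 10 CKO rod libraries above the control. Aldoa, an enzyme of glycolysis, had 60.8 CPM in control cones and a CKO median of 53.2, against 19.8 and 74.5 in rods (difference -2.48, adjusted p = 0.000296). Elob, a subunit of an elongation and ubiquitin ligase complex, had 45.2 CPM in control cones and 0 to 32.0 in CKO cones, against 3.60 and a CKO median of 10.1 in rods (difference -4.29), a call that was lost in all 4 alternatives tried. Gm12394 fell further in cones than in rods, where it went from 109 CPM to a CKO median of 53.2 (difference -2.09, adjusted p = 0.000892). Cones and rods differ in depth, and with the rods thinned to the UMIs of the cones 2 of the 8 calls were kept, those of Aldoa and Gm12394. Markers of cones in CKO rods were at 1.82 to 19.1 CPM summed over all 5 (3.72 in the control).

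Of the 5 cone markers, edgeR called 0 between CKO and control cones, with 1 at an unadjusted p under 0.05, Pde6h, and DESeq2 called 0. Arr3 stood at 3494 CPM in the control and 1776 to 3883 (median 3075) in CKO cones, with 1 of 10 above the control (log2 change -0.02, SE 0.20). Opn1mw was at 1760 CPM and 1273 to 2595 (median 1972; log2 change 0.03, SE 0.25), and Opn1sw at 741 CPM and 628 to 1190 (median 821; 0.30, SE 0.27). Gnat2 was at 480 CPM and 286 to 511 (median 422; -0.10, SE 0.21). The spread among CKO libraries was wider than these differences. Pde6h was at 221 CPM in the control and 99.8 to 743 (median 388) in CKO cones, 9 of 10 above, with an unadjusted p of 0.0226 and an adjusted p of 0.949 (log2 change 1.37, SE 0.55). It was called among libraries with Xist above 1000 CPM (adjusted p = 0.00954) and without a filter on low counts (adjusted p = 4.84e-08), and in no other alternative, where adjusted p reached 1. Of 24 cone phototransduction genes, edgeR called 0, with 1 at an unadjusted p under 0.05 (4.79% of all genes) and a median log2 change of -0.03 against 0.02 for all genes tested. Pde6c (log2 change -0.05, SE 0.23) and Cngb3 (-0.21, SE 0.21) were among the 24. DESeq2, whose 5 calls all lay among the 6 genes above, likewise called 0 genes of this list and of the lists that follow, apart from Fgf2.

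Of the regulators and structures of the cone, edgeR called 0 of 20 photoreceptor transcription factors (0 at an unadjusted p under 0.05, beside 4.79% of all genes, median log2 change -0.05), 0 of 12 thyroid hormone pathway genes (1 at that level, Klf9, median -0.07), 0 of 19 ribbon synapse genes (2, Syt1 and Elfn2, median 0.03) and 0 of 17 outer segment and cilium genes (3, Cep290, Crb1 and Rp1, median 0.00). Thrb was at 2155 CPM in the control and 1790 to 2361 (median 2136) in CKO cones (log2 change -0.03, SE 0.15). Rp1, a microtubule protein of the outer segment, had 8 of 10 CKO libraries above the control (log2 change 0.31, SE 0.14, adjusted p = 1). These medians lie near that of all genes. Of the 15 dorsoventral genes only 3 had the counts to be tested, 0 of which had an unadjusted p under 0.05. The 14 rod phototransduction genes had a median of -0.12, with 0 called and 0 at an unadjusted p under 0.05 by edgeR.

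Of the genes of hypoxia and stress, only Fgf2 was called in cones. Of 23 hypoxia and glycolysis genes tested in cones, edgeR called 0, with 5 at an unadjusted p under 0.05 (4.79% of all genes) and a median log2 change of 0.13; in rods it called 0 of 27, with 13 at that level (3.78% of all genes) and a median of 0.83, against -0.00 for all genes in rods. The difference between cones and rods was called for 1 of 28 of these genes, Aldoa, beside 0.0568% of all genes in that comparison. Pfkl, of glycolysis, stood at 9.22 CPM in control cones and 20.0 to 56.9 (median 38.7) in CKO cones, 10 of 10 above the control (log2 change 1.78, SE 0.58, adjusted p = 0.754). Hk2 was at 333 CPM and 187 to 415 (median 280.2), with 4 of 10 above (log2 change 0.15). Vegfa was at 63.6 CPM in control cones and 1.54 to 97.0 (median 68.3) in CKO cones. The control lay inside the CKO range for both of these. Of 7 photoreceptor stress genes tested in cones, edgeR called Fgf2 (0.0649% of all genes), with 2 at an unadjusted p under 0.05 (4.79% of all genes). In rods it called 2 of 20, Edn2 and Fgf2 (0.0748% of all genes), with 6 at that level (3.78% of all genes). The median log2 change of the list was 0.18 in cones and 1.30 in rods. Stat3, a mediator of cytokine signals, was at 92.2 CPM in the control and 120 to 279.5 (median 224) in CKO cones, 10 of 10 above (log2 change 1.13, SE 0.38, adjusted p = 0.780), and did not pass. Edn2, an endothelin made by stressed photoreceptors, had 0 UMIs in control cones and 0 to 12.5 CPM (median 10.9) in CKO cones, too few to be tested, and was called in rods, where the control had 0 UMIs and CKO rods 8.80 to 65.4 CPM (median 18.8), at least 53.8-fold higher at the median. That call was lost with kit alone and within batch 1 alone, both chosen after seeing the data.

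Other lists gave no calls in cones. For interferon and antigen presentation 4 of 29 genes could be tested (0 at an unadjusted p under 0.05, beside 4.79% of all genes, median log2 change 0.23), for the clock 11 (0, median 0.10) and for immediate early genes 6 (1, Nr4a1, median -0.31). The 21 mitochondrial electron transport genes had a median of -0.32, with 1 at that level by edgeR, Cox6c (log2 change -1.17). Its values in the control and in CKO replicates 6 and 7 are given above. Of the TGF-beta pathway, 7 of 16 genes could be tested, with 1 at that level, Tgfb2, and a median of 0.07. Tgfbr1 stood at 69.1 CPM in control cones (75 UMIs) and 52.9 to 93.7 (median 69.4) in CKO cones, 5 of 10 above (log2 change 0.07, SE 0.33, adjusted p = 1). In rods it was at 114 CPM in the control and 85.4 to 102 CPM in CKO rods, 0 of 10 above. Tgfbr2, the partner receptor, had 0 UMIs in control cones and at most 2.52 CPM in CKO cones, below the 2.76 CPM that a count of 0 allows.

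Markers of other cell types moved with the groups in some cases, and their part in the results above was not tested. All 6 red blood cell markers were detected in cones, led by Hbb-bs; they summed to 10.1 CPM in the control and 4.54 to 262 CPM (median 65.3) in CKO cones, 8 of 10 above, lowest in replicate 6 and highest in replicate 8. Muller glia markers summed to 7.37 CPM in control cones, with 3 of 10 detected (Glul the highest, and Rlbp1, Slc1a3, Sox9, Kcnj10, Vim, Crym and Dkk3 at 0), and to 0 to 187 CPM (median 20.5) in CKO cones, 8 of 10 above. Markers of vascular cells, which include those in which Cre acts, summed to 20.3 CPM in the control (5 of 10 detected, Pecam1 the highest, Cldn5, Flt1, Pdgfrb, Kcnj8 and Acta2 at 0) and 11.2 to 26.6 CPM (median 17.7) in CKO cones. Immune markers were at 15.7 and 4.62 to 22.7 CPM (7 of 12 detected in the control, Cx3cr1 the highest, Ptprc, C1qa, Tyrobp, Aif1 and Cd74 at 0). Rod markers were above the control in 1 of 10 CKO libraries. For cone bipolar, rod bipolar, amacrine, horizontal, ganglion, astrocyte and pigment epithelium markers the summed level in control cones lay inside the CKO range. By edgeR, 0 genes of all these lists were called in cones, with 1 at an unadjusted p under 0.05, in the cone bipolar list.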

How the data were processed

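The deposited files hold UMI counts per gene and nucleus with the library, batch, kit and cell type that the authors assigned. According to the methods, the authors counted reads with PIPseeker on GRCm39, removed background with CellBender and doublets with SOLO, and clustered the nuclei; the labels name mm10 and Seurat. UMIs of cone nuclei were summed per library and used as CPM of cone UMIs. Batches used annotations that differ, so only the 24645 genes with UMIs in both entered the tests. Tests across genes used edgeR 4.0.16 (TMM, filterByExpr, quasi-likelihood) and DESeq2 1.42.0 in R 4.3.3, with the genotype term adjusted for batch and kit; the control shares its batch with CKO replicates 1 to 3. Other work used Python 3.11.15 with pandas 2.3.3, scipy 1.17.1 and numpy 2.4.6, and plots used matplotlib 3.10.9. Positions come from GENCODE on GRCm39. Fits were tested on simulated data. This covered the edgeR fits in cones, between cones and rods and between opsin classes. The simulated counts had the same spread for every gene and no batch or kit effect. Named were the cone markers, called list genes and those of highest UMIs, the 10 called genes of smallest p in each direction, and the 20 highest and 5 lowest cone to rod ratios; other names were chosen after their values were seen. The members and lists were chosen with earlier results of these data known. The rod floor, the shorter promoter motif and the 10 Mb window were chosen after seeing values.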

Additional observations from a re-analysis of the deposited data

Results flagged for a closer look

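A test of the difference between cell types picked out 8 genes whose CKO effect differed between cones and rods. The difference of log2 effects, cones minus rods, was -2.03 for F630040K05Rik, -3.51 for Antxr2, -2.48 for Aldoa, -2.5 for Gm9869, -2.09 for Gm12394, -1.86 for Gm15983, -1.51 for Gnb3 and -4.29 for Elob. Of 25 values examined over the 10 CKO libraries with at least 20 cones, without CKO replicate 4, 0 had a single library far from the others. The rule was Dixon's, which looks at the gap between the most extreme library and the next. It can miss libraries that are low together, as CKO replicates 6 and 7 were for Arid5b and Cdh20.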

How the results depend on the processing

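The mean difference in cone share, 0.171 points, turned to -0.606 with rods left out of the denominator and to -0.509 among nuclei with at least 1000 UMIs (exact permutation p = 0.667 and 0.75). CKO replicate 4, with 1 cone, moved all 3: without it, chosen after seeing the data, they were 0.449, 0.0768 and -0.0789 (p = 0.545, 1 and 1). The share of cones with both opsins, at -0.817 points, turned to 1.37 with thinning to 500 UMIs, 0.237 without thinning and 0.308 within the batch of the control. With 1 control no value of these tests can pass 0.05. The 6 genes called in CKO cones became 2 with kit alone, 2 without covariates, 14 among libraries with high Xist, 59 of 21688 genes without a filter on low counts, 1 in nuclei without rod gene UMIs (chosen after seeing the data, as were the alternatives in rods), and 4 to 15 with each CKO replicate left out in turn. Gm17167 was called in 22 of 22 alternatives, Gm12394 in 21, Arid5b in 19, Cdh20 in 18, Antxr2 in 15 and Fgf2 in 13 of 21. These alternatives are not independent, since all share the 1 control library. Leaving out CKO replicate 5 and leaving out replicates 4 and 5 are the same fit, counted under both names. Leaving out any of CKO replicates 5 to 11 keeps the libraries that set the log2 changes. In rods 10 genes became 2 with kit alone and 1 within the batch of the control. The 8 of 14081 genes that differed between cones and rods became 2 of 9547 tested with rods thinned. The 468 of 5564 genes between opsin classes became 302 with DESeq2, and 336 to 467 with a library left out. Without the library block they became 138 of 3722 tested, where the block and the set of genes changed together. The 20 genes named by smallest p between the classes kept their calls in every alternative that tested them. Apart from the smaller number of nuclei or UMIs in the alternatives that drop them, the cause was not tested. Only 1 control library was sequenced, so its own variation is unknown and is taken to be that of the CKO libraries.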

Other observations

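Some cone marker RNA was found outside cones. Gnat2 was in 11.9% of cone bipolar nuclei (median depth 3496 UMIs), whereas Arr3 was in 6.10%, Opn1mw in 5.11%, Opn1sw in 4.70% and Pde6h in 4.07% of them. In rod bipolar nuclei, of median depth 3390 UMIs, Gnat2 was in 3.94% and Arr3 in 5.08%. In rods each of the 5 markers was in at most 0.427% of nuclei.

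The annotation of the files differed between batches. Among symbols with at least 100 UMIs, 301 were without any UMI in batch 3, and 617 were seen in that batch alone; these did not enter a test.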
